A study of Homo sapiens with 15 samples.

Results

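The transcripts of 10 autophagy and mitophagy genes were followed in A549 cells, a human lung adenocarcinoma line. BNIP3, BNIP3L, FUNDC1, PINK1, SQSTM1, GABARAPL1, MAP1LC3B, ULK1, WIPI1 and BECN1 were taken by name for their known roles in these processes. They are 10 of the 18377 genes that have at least 1 probe set naming that gene alone, and all 10 passed the filter on dim signal that left 16005 genes for testing. Each of the 10 has 1 such probe set, which was above the dim level on all 15 arrays. The 10 were chosen with earlier results of these data known, so contrasts with all genes below are descriptions and not tests.

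The study exposed A549 cultures to hypoxia in gas-tight pouches and asked how 3 compounds known by the code names BB2-125, BB2-162 and BB2-282 changed their transcripts. The design text calls the compounds transcriptional inhibitors, and the title names hypoxia-inducible factor signalling. There were 5 groups of 3 arrays, each array from a culture labelled as a biological replicate. The first group received 10 µM BB2-125 for 6 h before hypoxia and through the 42 h of hypoxia, the second 10 µM BB2-162 on the same schedule, and the third 10 µM BB2-282 on the same schedule. The fourth group, hypoxic vehicle, had the same 42 h of hypoxia with solvent alone, and the fifth, normoxic vehicle, had solvent without hypoxia. Every culture contained 0.1% DMSO. No array of a compound in normoxia was analysed here, so an effect of a compound on the response to hypoxia and an effect it has at any oxygen level cannot be told apart. A549 is 1 tumour-derived line, and each compound was measured at a single dose and time.

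Autophagy encloses part of the cytoplasm in a double membrane, the autophagosome, and delivers it to the lysosome. The ULK1 kinase complex starts the process, a lipid kinase complex built around Beclin 1 (BECN1) marks the membrane with phosphatidylinositol 3-phosphate, WIPI proteins read that mark, and small ubiquitin-like proteins of the ATG8 family (the LC3 and GABARAP proteins) are then coupled to the growing membrane, where receptors that hold cargo bind them. In mitophagy the cargo is a mitochondrion: BNIP3, BNIP3L (also called NIX) and FUNDC1 are receptors in its outer membrane, while PINK1 is a kinase that gathers on damaged mitochondria and starts their tagging with ubiquitin. BNIP3 and BNIP3L are established target genes of hypoxia-inducible factor, the transcription factor that accumulates when oxygen is low. The arrays measured transcripts, not protein or the rate of autophagy. In RNA from a whole culture, fewer cells with a transcript and less of it per cell cannot be told apart.

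All 6 epithelial markers were above the dim level, whose mean was 4.73 on the log2 scale, on all 15 arrays: mean log2 intensities were 12.87 for KRT8, 12.42 for KRT18, 12.21 for KRT7, 10.02 for KRT19, 8.14 for CDH1 and 5.70 for EPCAM, the last little above it. Their summed intensity was 20420 to 22840 with BB2-125, 16220 to 20400 with BB2-162, 15130 to 17570 with BB2-282, 17580 to 19040 in hypoxic vehicle and 22860 to 24430 in normoxic vehicle. Markers of other cell types had low to moderate signal. Among 5 fibroblast markers, DCN and LUM were under the dim level on all arrays, while COL1A1 (7.71), COL1A2 (6.44) and PDGFRB (5.99) were above it on all. Among 4 leukocyte markers PTPRC was under it on all arrays, while CD79A (6.37), CD14 (6.10) and CD3E (5.61) were above it on all. The 5 alveolar type 2 markers averaged 5.59 to 6.86 and the 5 endothelial markers 4.80 to 5.69. The sums of these lists moved with the groups. The fibroblast sum was 341.5 to 387.2 with BB2-125, 397.1 to 445.7 with BB2-162, 383.6 to 420.6 with BB2-282, 321.7 to 373.5 in hypoxic vehicle and 357.3 to 375.4 in normoxic vehicle, so that BB2-162 and BB2-282 lay above hypoxic vehicle without overlap. The alveolar type 2 sum was 331.1 to 378.7 with BB2-125, 387.0 to 445.2 with BB2-162, 370.2 to 396.5 with BB2-282, 351.1 to 382.2 in hypoxic vehicle and 287.8 to 348.1 in normoxic vehicle. The leukocyte sum was 229.4 to 243.7 with BB2-125, 226.2 to 242.7 with BB2-162, 204.7 to 212.9 with BB2-282, 185.0 to 220.6 in hypoxic vehicle and 169.4 to 186.8 in normoxic vehicle. The endothelial sum was 182.4 to 186.6 with BB2-125, 179.7 to 207.4 with BB2-162, 170.7 to 185.1 with BB2-282, 165.0 to 176.7 in hypoxic vehicle and 150.0 to 159.9 in normoxic vehicle. The part of these markers in the results below was not tested.

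The 4 genes used to check the oxygen labels, VEGFA, SLC2A1, NDRG1 and EGLN3, all rose in hypoxic vehicle, by 2.13 to 4.15 on the log2 scale. With BB2-125 all 4 were lower than in hypoxic vehicle: VEGFA by a log2 change of -0.87, SLC2A1 by -0.52, NDRG1 by -0.32 and EGLN3, an oxygen-sensing hydroxylase, by -2.14. With BB2-162 (-2.39) and BB2-282 (-1.11) EGLN3 alone was called. The changes of VEGFA, SLC2A1 and NDRG1 were -0.06, -0.21 and -0.15 with BB2-162, and 0.13, -0.05 and 0.02 with BB2-282. The median intensity of an array was 74.91 to 84.6. BB2-162 replicate 1 stood apart: its root mean square deviation from its group mean was 0.221 log2 units, the other 14 arrays lying between 0.0943 and 0.163, and it was the highest of its group for 9 of the 10 genes, all but ULK1. Calls of the 10 genes that change without it are given both ways.

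Hypoxia alone raised 6 of the 10 genes and lowered 2. WIPI1, GABARAPL1, BNIP3L and BNIP3 rose by 1.35 to 2.02 on the log2 scale, ULK1 and MAP1LC3B rose by less, and BECN1 and FUNDC1 fell to under 0.5 of the normoxic level. PINK1 and SQSTM1 did not pass the test. These 8 calls, at a Benjamini-Hochberg adjusted p under 0.05 in limma over all 16005 genes, stand beside 57.5% of all genes called in the same comparison: 28.2% of genes were called higher and 29.4% lower. Changes are log2 differences between group means ± standard error, and intensities are on the linear scale of the deposited values, listed for replicates 1, 2 and 3.

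Among the genes that start and nucleate the autophagosome, WIPI1 moved most. Its intensity was 2417, 2174 and 2522 in hypoxic vehicle, against 563, 612 and 581 in normoxic vehicle. Every hypoxic array was over 3 times as bright as every normoxic one, and the change was 2.02 ± 0.10 (adjusted p = 5.86e-12). ULK1, the initiating kinase, read 606, 607 and 793 in hypoxic vehicle, against 336, 393 and 407 in normoxic vehicle. Its hypoxic replicate 3 was the highest, the groups did not overlap, and the change was 0.81 ± 0.12 (adjusted p = 8.93e-06). BECN1, by contrast, read 134, 126 and 129 in hypoxic vehicle, against 320, 344 and 324 in normoxic vehicle. The 3 hypoxic arrays lay close together and far under the normoxic ones, and BECN1 fell by 1.35 ± 0.13 on the log2 scale (adjusted p = 3.82e-08).

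Both ATG8-family genes rose. GABARAPL1 had intensities of 1436, 1573 and 1474 in hypoxic vehicle, against 457, 524 and 455 in normoxic vehicle. The gap between the groups was much wider than the spread inside either, and the change was 1.65 ± 0.14 (adjusted p = 6.36e-09). MAP1LC3B, which encodes LC3B, the protein most used to mark autophagosomes, read 201, 176 and 193 in hypoxic vehicle, against 136, 133 and 136 in normoxic vehicle. The groups did not overlap, and the change was 0.49 ± 0.16 (adjusted p = 0.0129). A second probe set for MAP1LC3B is shared with the near copy MAP1LC3B2 and was not used. Its mean log2 intensity was 11.41 ± 0.04 with BB2-125, 11.05 ± 0.15 with BB2-162, 10.71 ± 0.07 with BB2-282, 10.47 ± 0.19 in hypoxic vehicle and 10.23 ± 0.10 in normoxic vehicle (SD, n = 3 each), the same order of groups as for the MAP1LC3B probe set.

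The outer-membrane receptors of mitophagy moved in both directions. BNIP3 read 5139, 5061 and 4414 in hypoxic vehicle, against 2037, 1864 and 1822 in normoxic vehicle, a change of 1.35 ± 0.10 (adjusted p = 1.53e-09). BNIP3L read 4775, 5816 and 4305 in hypoxic vehicle, against 1725, 1653 and 1653 in normoxic vehicle, a change of 1.55 ± 0.12 (adjusted p = 2.22e-09). In both genes the lowest hypoxic array was more than 2 times as bright as the highest normoxic one. FUNDC1 went the other way, with 351, 276 and 279 in hypoxic vehicle, against 731, 638 and 509 in normoxic vehicle. Its normoxic arrays were spread widely but all lay above the hypoxic ones, and FUNDC1 fell by 1.05 ± 0.13 on the log2 scale (adjusted p = 1.50e-06).

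PINK1 and the cargo receptor SQSTM1 (p62, which binds ubiquitin and LC3) had small differences. PINK1 read 217, 211 and 227 in hypoxic vehicle, against 168, 201 and 190 in normoxic vehicle. The 3 hypoxic arrays were above the 3 normoxic ones, but the change of 0.23 ± 0.12 missed the threshold (adjusted p = 0.102), though it passed with quantile normalization (0.31, adjusted p = 0.0393). SQSTM1 read 2050.2, 2104 and 2062 in hypoxic vehicle, against 2006, 1921 and 1941 in normoxic vehicle. Here too the groups did not overlap, by a narrow margin, and the change was 0.08 ± 0.10 (adjusted p = 0.504). For all 10 genes the 3 hypoxic arrays were on one side of the 3 normoxic ones, which was so for 64.6% of all genes tested. The median change of the 10 was 0.65, against 0.09 for all tested genes.

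**Figure D1:**
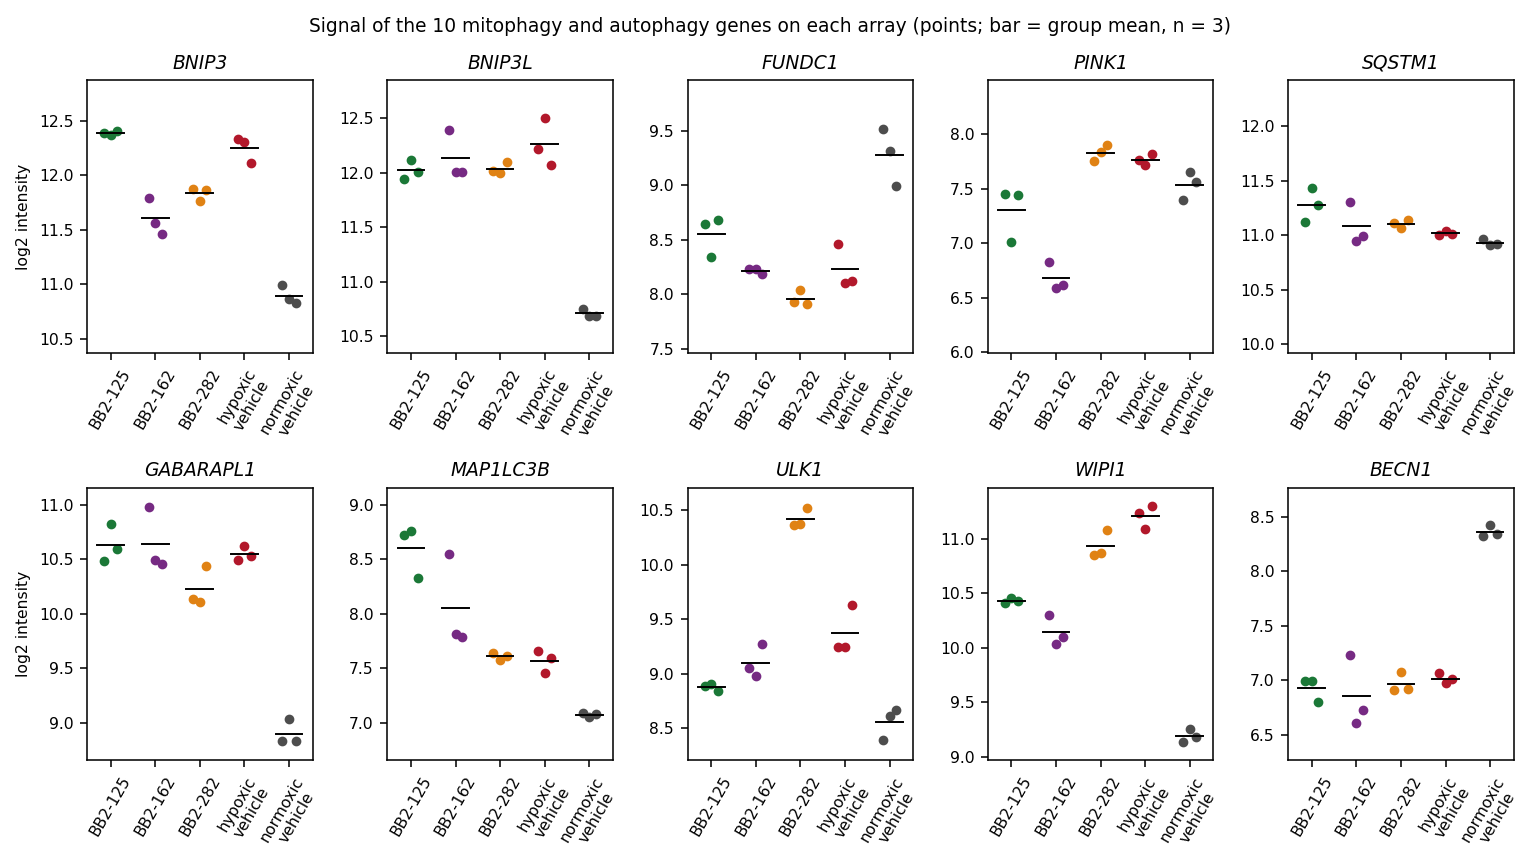
Log2 intensity of each of the 10 genes on each of the 15 arrays (points) with the mean of each group of 3 (bars), in the order BB2-125, BB2-162, BB2-282, hypoxic vehicle and normoxic vehicle; every panel spans the same height in log2 units. The normoxic arrays lie below all others for WIPI1, GABARAPL1, BNIP3L and BNIP3 and above all others for BECN1 and FUNDC1, ULK1 is highest with BB2-282, and PINK1 is lowest with BB2-162.

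The promoters of 4 of the genes that rose in hypoxia are shown because hypoxia-inducible factor binds a short core, ACGTG or GCGTG, and these 4 differ in how often it occurs. They are RefSeq sequences of build GRCh38.p14, from 250 bases before to 50 bases after the annotated gene start, written in the direction of transcription, with capitals for every match of ACGTG or GCGTG on either strand (read as CACGT or CACGC on the other strand). BNIP3 lies on the minus strand at chr10:131981874-131982173, MAP1LC3B on the plus strand at chr16:87392086-87392385, WIPI1 on the minus strand at chr17:68457447-68457746 and GABARAPL1 on the plus strand at chr12:10212627-10212926.
BNIP3: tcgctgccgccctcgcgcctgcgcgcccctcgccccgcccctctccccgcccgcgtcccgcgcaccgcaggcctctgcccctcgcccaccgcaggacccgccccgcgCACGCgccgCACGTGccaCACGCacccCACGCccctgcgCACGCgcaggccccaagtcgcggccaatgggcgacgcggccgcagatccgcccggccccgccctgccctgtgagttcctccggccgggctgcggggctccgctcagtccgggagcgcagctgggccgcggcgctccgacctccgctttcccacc
MAP1LC3B: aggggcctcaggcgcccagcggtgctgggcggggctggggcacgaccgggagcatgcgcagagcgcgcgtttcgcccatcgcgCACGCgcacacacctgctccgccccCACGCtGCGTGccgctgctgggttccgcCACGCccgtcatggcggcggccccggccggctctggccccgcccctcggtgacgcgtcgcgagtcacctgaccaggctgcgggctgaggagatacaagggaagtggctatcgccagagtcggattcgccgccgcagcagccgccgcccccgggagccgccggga
WIPI1: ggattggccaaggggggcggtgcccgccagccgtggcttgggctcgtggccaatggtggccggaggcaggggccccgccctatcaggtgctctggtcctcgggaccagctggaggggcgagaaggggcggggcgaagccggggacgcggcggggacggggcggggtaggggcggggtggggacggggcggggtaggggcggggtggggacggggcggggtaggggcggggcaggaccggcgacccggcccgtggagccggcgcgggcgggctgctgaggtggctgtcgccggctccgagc
GABARAPL1: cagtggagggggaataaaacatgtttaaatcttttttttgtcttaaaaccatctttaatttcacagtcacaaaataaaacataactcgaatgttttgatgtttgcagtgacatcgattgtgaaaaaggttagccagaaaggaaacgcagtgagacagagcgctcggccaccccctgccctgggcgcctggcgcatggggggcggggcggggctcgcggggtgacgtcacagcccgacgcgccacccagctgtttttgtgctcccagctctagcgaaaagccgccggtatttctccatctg

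A sequence was matched for 8 of the 10 genes, PINK1 and BNIP3L being the other two. For 7 of the 8 the window sits at the start of the gene as annotated. That of BECN1 lies inside the annotated gene, so it is left out here. BNIP3 held 6 matches of the core, 2 of which overlap in the palindrome CACGTG, and MAP1LC3B held 4. ULK1 held 1, and FUNDC1, SQSTM1, GABARAPL1 and WIPI1 held 0. Of 35116 RefSeq promoters of the same length, 48.4% held at least 1 match and 10.1% held 3 or more, while CACGTG occurred in 7.26%. WIPI1 and GABARAPL1, whose rise in hypoxia was larger than that of BNIP3 by the point estimates, had no match in this window, and MAP1LC3B, with 4, had a smaller rise. A match is a stretch of letters and not a measured binding site, and no match speaks only of these 300 bases.

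Beyond the 10 genes, 96 other genes of the pathway were tested out of 102 listed by role. In hypoxic vehicle against normoxic vehicle 27 rose and 32 fell, 61.5% of the 96, beside 57.5% of all genes (28.2% higher and 29.4% lower). Genes listed with the initiation complex moved both ways. ATG101 (0.99) and RB1CC1, the scaffold also called FIP200 (0.61), rose, while the ULK-family kinases ULK2 (-0.74) and ULK3 (-0.46) fell. Of 10 genes around the class III PI3-kinase, 5 rose, among them NRBF2 (1.09), SH3GLB1 (1.04) and ATG14 (0.83), and 3 fell, among them the kinase's regulatory subunit PIK3R4 (-1.45). Of the 7 that supply membrane, WDR45B, a WIPI-family protein (1.18), and ATG9B (0.54) rose and the lipid-transfer gene ATG2B (-1.32) fell. MAP1LC3A (0.61), the sister of MAP1LC3B, was the 1 of 4 other ATG8-family genes that passed. Of 11 genes that process and attach ATG8 proteins, 5 fell, among them the proteases ATG4A (-1.08) and ATG4C (-1.06) and ATG10 (-0.82), while the protease ATG4D (0.80) rose.

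Of 10 other cargo receptors, 4 rose in hypoxic vehicle and 2 fell. Of all genes 28.2% were called higher and 29.4% lower, which stands beside each count in this paragraph. OPTN, a ubiquitin-binding receptor of mitophagy, had the largest rise of the listed autophagy genes at 2.64 ± 0.11 (adjusted p = 3.44e-13), CALCOCO2 (0.65) and TOLLIP (0.55) rose by less, and the endoplasmic reticulum receptor RETREG1 (-0.67) fell. Of 19 other mitophagy genes, 3 rose and 7 fell: PPTC7, a mitochondrial phosphatase that restrains BNIP3 and BNIP3L protein, rose by 1.23, while the fission GTPase DNM1L (-1.15), the inner-membrane protease OMA1 (-0.86) and the fusion GTPase MFN2 (-0.73) fell. Of 12 genes of fusion with the lysosome, 7 fell, led by VPS39 (-1.30), VPS33A (-1.26) and VAMP8 (-1.13), and 2 rose, one of them YKT6 (0.56). Among 18 upstream regulators 7 rose and 5 fell. PRKAB2, a subunit of the energy sensor AMPK, rose by 2.31, and 3 genes of the growth-signalling complexes of mTOR, MTOR itself (-1.34), DEPTOR (-1.31) and RPTOR (-1.19), fell.

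With BB2-125, MAP1LC3B rose above its level in hypoxic vehicle, and WIPI1, ULK1 and PINK1 fell. BNIP3 did not pass the test. Thus 4 of the 10 genes were called, 1 higher and 3 lower, beside 28.4% of all genes (13.3% higher and 15% lower). The comparisons of the 3 compounds with hypoxic vehicle share the 3 hypoxic vehicle arrays, so their values are set side by side and their likeness is not tested.

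MAP1LC3B read 423, 433 and 322 with BB2-125, against 201, 176 and 193 in hypoxic vehicle. All 3 treated arrays were above the vehicle ones, replicate 3 least so, and the change was 1.04 ± 0.16 (adjusted p = 6.22e-05). WIPI1 read 1363, 1404 and 1383 with BB2-125, against 2417, 2174 and 2522 in hypoxic vehicle. The treated arrays were tight and well below the vehicle ones, a change of -0.77 ± 0.10 (adjusted p = 1.10e-05), although WIPI1 remained above normoxic vehicle by 1.24 ± 0.10. ULK1 read 473, 478 and 458 with BB2-125, against 606, 607 and 793 in hypoxic vehicle. The groups did not overlap, and ULK1 fell by 0.50 ± 0.12 on the log2 scale (adjusted p = 0.00330). PINK1 read 175, 129 and 174 with BB2-125, against 217, 211 and 227 in hypoxic vehicle. Treated replicate 2 was the lowest, the groups did not overlap, and the change was -0.47 ± 0.12 (adjusted p = 0.00530).

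The other 6 genes did not pass with BB2-125. BNIP3 read 5359, 5297 and 5436 with BB2-125, all above the hypoxic vehicle arrays, but the change was only 0.14 ± 0.10 (adjusted p = 0.350, 95% interval -0.07 to 0.35). SQSTM1 read 2235, 2772 and 2478 with BB2-125, also all above hypoxic vehicle, with a change of 0.26 ± 0.10 (adjusted p = 0.0706). It passed without BB2-125 replicate 1 (0.34, adjusted p = 0.0369) and with array weights (0.28, adjusted p = 0.00945). FUNDC1 read 399, 325 and 409.6 with BB2-125 and overlapped hypoxic vehicle, a change of 0.33 ± 0.13 (adjusted p = 0.0724). FUNDC1 was the least settled of the 6: it passed without BB2-125 replicate 2 (0.43, adjusted p = 0.0307), without hypoxic vehicle replicate 1 (0.44, adjusted p = 0.0258), and when replicate number was a block and only these 6 arrays were fitted (0.33, adjusted p = 0.0319). The 95% intervals were -0.49 to 0.01 for BNIP3L, -0.20 to 0.38 for GABARAPL1 and -0.36 to 0.18 for BECN1. Groups did not overlap for 6 of the 10 genes, beside 41.3% of all genes.

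With BB2-162, PINK1, WIPI1 and BNIP3 fell below their levels in hypoxic vehicle, and MAP1LC3B rose. PINK1 and WIPI1 were each at less than 0.5 of the hypoxic vehicle level, and PINK1 was also below normoxic vehicle. The count was 1 higher and 3 lower of 10, beside 36.1% of all genes (15.7% higher and 20.4% lower). Of all genes called, 43.4% were higher, and 28.2% after each array was centred on its median.

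PINK1 read 114, 96.6 and 98.3 with BB2-162, against 217, 211 and 227 in hypoxic vehicle and 168, 201 and 190 in normoxic vehicle. The BB2-162 arrays were the 3 lowest of all 15 for this gene. The change was -1.09 ± 0.12 from hypoxic vehicle (adjusted p = 1.59e-06) and -0.86 ± 0.12 from normoxic vehicle (adjusted p = 3.80e-06). WIPI1 read 1265, 1047 and 1096 with BB2-162, against 2417, 2174 and 2522 in hypoxic vehicle. The groups lay far apart, with a change of -1.06 ± 0.10 (adjusted p = 3.45e-07). BNIP3 read 3537, 3024 and 2810.4 with BB2-162, against 5139, 5061 and 4414 in hypoxic vehicle. Every treated array was below every hypoxic vehicle array, the change being -0.64 ± 0.10 (adjusted p = 8.33e-05). It was still above normoxic vehicle, by 0.71 ± 0.10.

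MAP1LC3B read 374, 225 and 220.3 with BB2-162, against 201, 176 and 193 in hypoxic vehicle. BB2-162 replicate 1, the array that stood apart, was much the brightest. The change of 0.48 ± 0.16 passed (adjusted p = 0.0255), but it was 0.23 without that array (adjusted p = 0.110), and without hypoxic vehicle replicate 2 it was 0.43 (adjusted p = 0.0914). It also missed the threshold with array weights (0.29, adjusted p = 0.109), after median centring (0.41, adjusted p = 0.0811) and in a fit of the 2 groups alone (0.48, adjusted p = 0.0903). BECN1 read 150.0, 97.3 and 106 with BB2-162, against 134, 126 and 129 in hypoxic vehicle, with the same array on the far side of the other two. Its change was -0.16 ± 0.13 (adjusted p = 0.324), but -0.35 without that array (adjusted p = 0.00932) and -0.31 with array weights (adjusted p = 0.0392). ULK1 read 532, 504 and 617 with BB2-162 and overlapped hypoxic vehicle, a change of -0.27 ± 0.12 (adjusted p = 0.0775). It passed without BB2-162 replicate 3 (-0.36, adjusted p = 0.0465) and after median centring (-0.35, adjusted p = 0.0319). The remaining 4 did not pass, with 95% intervals of -0.38 to 0.12 for BNIP3L, -0.29 to 0.26 for FUNDC1, -0.15 to 0.29 for SQSTM1 and -0.19 to 0.39 for GABARAPL1. Groups did not overlap for 4 of the 10 genes, beside 40.3% of all genes.

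With BB2-282, ULK1 rose to about 2 times its level in hypoxic vehicle and BNIP3 fell. These 2 calls, 1 higher and 1 lower, stand beside 13.6% of all genes (5.65% higher and 7.94% lower). The number of all genes called, 2176, was 1219 without hypoxic vehicle replicate 1, 1351 without hypoxic vehicle replicate 2 and 1255 without BB2-282 replicate 2.

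ULK1 read 1322, 1323 and 1469 with BB2-282, against 606, 607 and 793 in hypoxic vehicle and 336, 393 and 407 in normoxic vehicle. The BB2-282 arrays were the 3 highest of all 15 for this gene, and the change from hypoxic vehicle was 1.05 ± 0.12 (adjusted p = 1.41e-05), the 142nd largest of the 16005 genes by size. BNIP3 read 3739.6, 3479 and 3729 with BB2-282, against 5139, 5061 and 4414 in hypoxic vehicle. All 3 treated arrays were lower, a change of -0.41 ± 0.10 (adjusted p = 0.0100). The call was lost without BB2-282 replicate 2 (-0.38, adjusted p = 0.0554) and without hypoxic vehicle replicate 1 (-0.37, adjusted p = 0.0574), which each leave 1 of the 10 genes called. With quantile normalization the change was -0.24 (adjusted p = 0.0838) and was not called either.

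For 4 more genes the BB2-282 and hypoxic vehicle arrays did not overlap, yet the change did not pass. WIPI1 read 1842, 1873 and 2166 with BB2-282, against 2417, 2174 and 2522 in hypoxic vehicle, a change of -0.28 ± 0.10 (adjusted p = 0.0814). GABARAPL1 read 1126, 1106 and 1390.4 with BB2-282, a change of -0.31 ± 0.14 (adjusted p = 0.153). FUNDC1 read 244, 263 and 241 with BB2-282, a change of -0.27 ± 0.13 (adjusted p = 0.214). SQSTM1, with 2215, 2143 and 2258, was above hypoxic vehicle by 0.09 ± 0.10 (adjusted p = 0.680). With array weights WIPI1 (-0.30, adjusted p = 0.00844), GABARAPL1 (-0.32, adjusted p = 0.0265) and FUNDC1 (-0.34, adjusted p = 0.0393) passed. In all, 6 of the 10 genes did not overlap, beside 31.4% of all genes. The 95% interval was -0.19 to 0.31 for PINK1, -0.29 to 0.38 for MAP1LC3B, -0.48 to 0.02 for BNIP3L and -0.31 to 0.22 for BECN1.

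**Figure D2:**
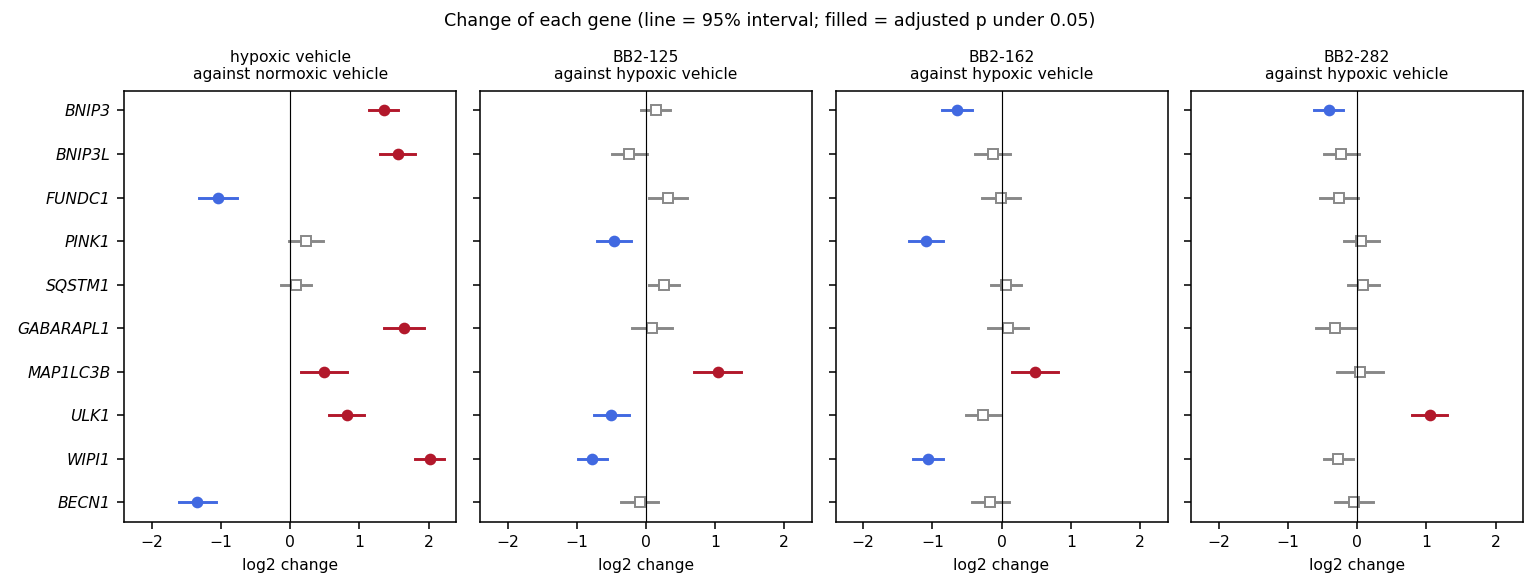
Log2 change with its 95% interval for each of the 10 genes in hypoxic vehicle against normoxic vehicle and with each compound against hypoxic vehicle; filled red circles are called higher, filled blue circles called lower, and open grey squares did not pass (adjusted p under 0.05). Hypoxia has 8 filled points of 10, BB2-125 and BB2-162 have 4 each and BB2-282 has 2. Beside these, 57.5% of all genes were called in hypoxia, 28.4% with BB2-125, 36.1% with BB2-162 and 13.6% with BB2-282.

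Against normoxic vehicle, those of the 10 genes that were called in hypoxic vehicle were all called in the same direction with each compound. These comparisons share the 3 normoxic vehicle arrays, so their likeness is not tested. With BB2-125, 7 of the 10 genes were higher than in normoxic vehicle and 2 lower, beside 62% of all genes called (31.5% higher and 30.5% lower). The groups of 9 genes did not overlap, beside 70.5%. With BB2-162, 6 were higher and 3 lower, beside 76.8% (42.4% higher and 34.4% lower), and 9 did not overlap, beside 75.2%. With BB2-282, 7 were higher and 2 lower, beside 64.8% (33.4% higher and 31.4% lower), and all 10 did not overlap, beside 74.4%. The median change of all genes with BB2-162 was 0.14 in this comparison and 0.03 after each array was centred on its median. BNIP3L, GABARAPL1, MAP1LC3B, WIPI1, BNIP3 and ULK1 were higher than in normoxic vehicle with each of the 3 compounds, and BECN1 and FUNDC1 were lower with each. BECN1, for one, read 127, 127 and 111 with BB2-125, and 120.0, 135 and 121 with BB2-282, changes of -1.44 ± 0.13 and -1.39 ± 0.13 from normoxic vehicle. BNIP3L read 3944, 4455 and 4120.4 with BB2-125, 5371, 4127 and 4120.4 with BB2-162, and 4152, 4080.1 and 4381 with BB2-282, and was 1.31 to 1.43 above normoxic vehicle. Its 3 compound groups overlapped one another and hypoxic vehicle.

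The weakest of these calls depended on single arrays or on the scaling. ULK1 with BB2-125 was 0.32 ± 0.12 above normoxic vehicle (adjusted p = 0.0265). It did not pass without BB2-125 replicate 1 (0.31, adjusted p = 0.0558), BB2-125 replicate 2 (0.30, adjusted p = 0.0659) or normoxic vehicle replicate 1 (0.23, adjusted p = 0.122), nor after median centring (0.26, adjusted p = 0.0693). SQSTM1 was higher with BB2-125 by 0.35 ± 0.10 (adjusted p = 0.00834), but not without BB2-125 replicate 2 (0.27, adjusted p = 0.0543). PINK1 was higher with BB2-282 by 0.29 ± 0.12 (adjusted p = 0.0373), a call lost without BB2-282 replicate 2 (adjusted p = 0.0809), BB2-282 replicate 3 (0.106), normoxic vehicle replicate 1 (0.144) or normoxic vehicle replicate 3 (0.0634), and after median centring (0.24, adjusted p = 0.108). SQSTM1 passed with quantile normalization for BB2-162 (0.23, adjusted p = 0.0470) and BB2-282 (0.30, adjusted p = 0.0122), against 0.15 and 0.17 without it. With BB2-125, PINK1 differed from normoxic vehicle by -0.24 ± 0.12 (adjusted p = 0.0880), and it passed without BB2-125 replicate 1 (-0.31, adjusted p = 0.0483) or normoxic vehicle replicate 1 (-0.31, adjusted p = 0.0493).

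Among the other genes of the pathway, as among all genes, more were called lower than higher with BB2-162 against hypoxic vehicle. Of the 96, 14 rose and 34 fell, 50% in all. Beside this, 36.1% of all genes were called, 15.7% higher and 20.4% lower. Of those calls over all genes 43.4% were higher, and 28.2% after each array was centred on its median. With BB2-125, 15 rose and 11 fell, 27.1% beside 28.4% of all genes (13.3% higher and 15% lower). With BB2-282, 4 rose and 17 fell, 21.9% beside 13.6% of all genes (5.65% higher and 7.94% lower). These 21 calls were 11 without hypoxic vehicle replicate 1, 8 without hypoxic vehicle replicate 2, 11 without BB2-282 replicate 1 and 10 without BB2-282 replicate 2.

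MAP1LC3A, like MAP1LC3B, was higher with BB2-125 than in hypoxic vehicle, by 0.92 ± 0.10 (adjusted p = 1.45e-06). It also rose with BB2-162 (0.57) and with BB2-282 (0.32), while GABARAP, of the other branch of the ATG8 family, fell with BB2-282 (-0.59). The machinery that attaches ATG8 proteins had 1 gene higher and 7 lower of 11 with BB2-162, beside 15.7% and 20.4% of all genes. Among the 7 were the ubiquitin-like ATG12 (-0.60) and its partner ATG16L1 (-0.48). The same list had 6 lower of 11 with BB2-282, beside 7.94% of all genes. Among these 6 were ATG4C (-0.90), the conjugating enzyme ATG3 (-0.79) and ATG5 (-0.56). With BB2-125 the list had 2 higher and 2 lower, beside 13.3% and 15% of all genes. There the protease ATG4A rose (0.89) and ATG4B fell (-0.47). The median change of these 11 genes was -0.01 with BB2-125, -0.41 with BB2-162 and -0.36 with BB2-282.

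In the initiation complex, RB1CC1 fell with BB2-125 (-1.19) and with BB2-162 (-0.95), where ULK2 (-0.79) and ATG13 (-0.43) fell as well. With BB2-282, the compound with the highest ULK1, 1 of the 5 other genes listed with the initiation complex was called. It was ATG101, at -0.43 (adjusted p = 0.0488), beside 13.6% of all genes called and 7.94% called lower. Around the class III PI3-kinase, UVRAG (0.64) and ATG14 (0.43) rose with BB2-125. With BB2-162, 3 of the 10 genes of that list fell, including SH3GLB1 (-0.44) and VMP1 (-0.49), beside 20.4% of all genes called lower. With BB2-282 VMP1 (-0.77) and the kinase PIK3C3 (-0.48) fell and NRBF2 (0.41) rose. Of the 7 membrane suppliers, 2 rose and 1 fell with BB2-125, 2 rose and 1 fell with BB2-162, and 1 rose with BB2-282. Of all genes, 13.3% were called higher and 15% lower with BB2-125. These shares were 15.7% and 20.4% with BB2-162, and 5.65% and 7.94% with BB2-282. ATG2B fell with BB2-125 (-0.97), and WDR45B rose with BB2-125 (0.45) and BB2-162 (0.39). ATG2A rose with BB2-125 (0.32) and BB2-162 (0.84), WDR45 fell with BB2-162 (-0.28), and ATG9A rose with BB2-282 (0.37).

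Cargo receptors fell in 6 of 10 cases with BB2-162, with none called higher: RETREG1 (-0.68), NCOA4, the receptor for ferritin (-0.59), SEC62 (-0.52) and OPTN (-0.40) had the lowest p. Beside each count in this paragraph, 15.7% of all genes were called higher and 20.4% lower with BB2-162. These shares were 13.3% and 15% with BB2-125, and 5.65% and 7.94% with BB2-282. With BB2-125, 4 fell and 1 rose, SEC62 (-0.62), RETREG1 (-0.68) and OPTN (-0.42) being lower and NBR1 (0.57) higher. OPTN went up with BB2-282 (0.37), while TAX1BP1 (-0.42) and TEX264 (-0.31) went down. Among 19 other mitophagy genes, 5 rose and 1 fell with BB2-125, 4 rose and 5 fell with BB2-162, and 3 fell with BB2-282. The mitochondrial fusion GTPase MFN1 fell with BB2-125 (-0.83) and BB2-162 (-0.95), the mitochondrial phosphatase PGAM5 rose with both (0.49 and 0.56), and the outer-membrane receptor BCL2L13 (-0.61) and FBXL4 (-0.63), a component of the ubiquitin ligase that limits BNIP3 and BNIP3L protein, fell with BB2-162. With BB2-282, OMA1 (-0.52) and the outer-membrane ubiquitin ligases MARCHF5 (-0.41) and MUL1 (-0.33) fell.

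For fusion with the lysosome, the adaptor PLEKHM1 fell with BB2-125 (-1.20) and BB2-162 (-1.11), and the SNARE genes SNAP29 (-0.97, with BB2-162) and VAMP8 (-1.07, with BB2-282) were the other large decreases. That list had 1 higher and 1 lower of 12 with BB2-125, 1 and 4 with BB2-162, and 0 and 2 with BB2-282. Of all genes, 13.3% were called higher and 15% lower with BB2-125. These shares were 15.7% and 20.4% with BB2-162, and 5.65% and 7.94% with BB2-282. Among 18 upstream regulators, 1 rose and 1 fell with BB2-125 and 5 rose and 5 fell with BB2-162. PRKAB2, which rose in hypoxia, was lower with BB2-125 (-0.69) and BB2-162 (-0.67), and the transcription factor FOXO3 was higher with both (0.40 and 0.60). None of the 18 was called with BB2-282 by limma.

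**Figure D3:**
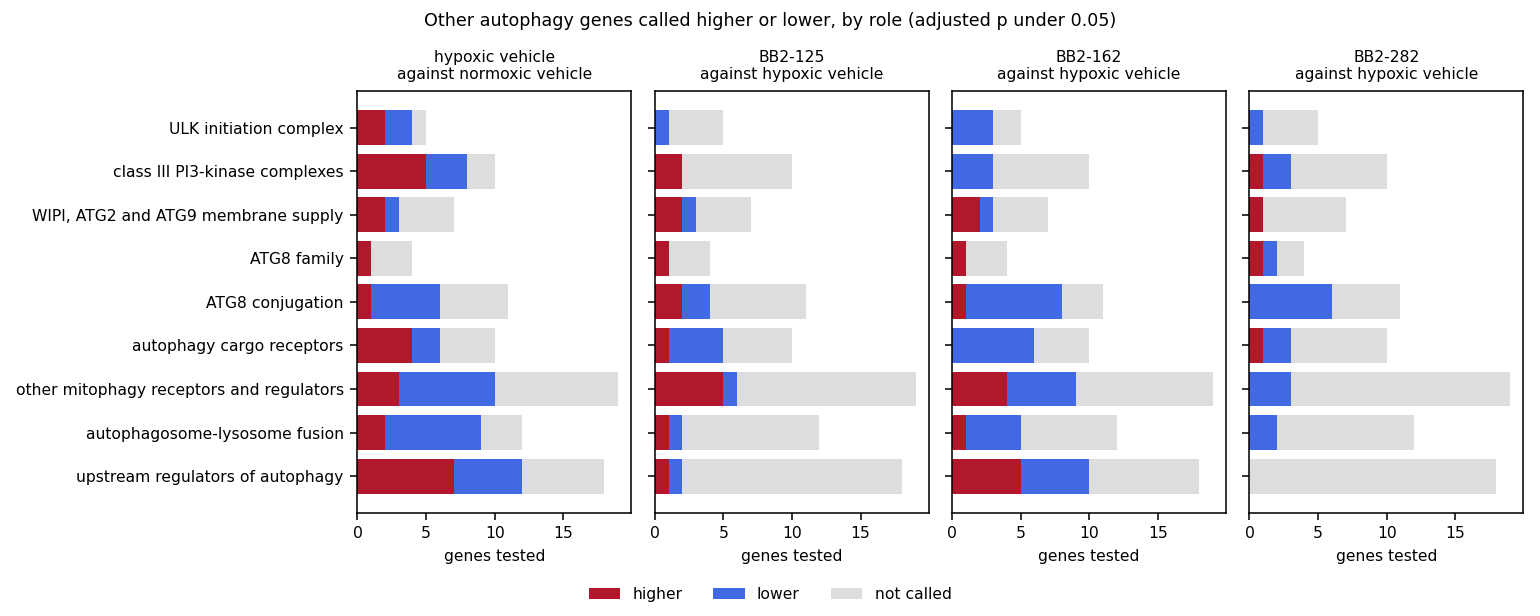
Number of genes called higher (red), called lower (blue) or not called (grey) in each of 9 lists of other autophagy and mitophagy genes, for hypoxic vehicle against normoxic vehicle and each compound against hypoxic vehicle. Upstream regulators have 12 of 18 called in hypoxia and 0 of 18 with BB2-282, beside 57.5% and 13.6% of all genes. The ATG8 conjugation list has 7 of 11 lower with BB2-162 and 6 of 11 lower with BB2-282, beside 20.4% and 7.94% of all genes.

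The 3 compounds were compared with one another directly at the same dose and time, in 3 pairs, with p adjusted over all 16005 genes within each pair. BB2-282 differed from both others in ULK1, PINK1 and WIPI1, which were higher with it. With all arrays, GABARAPL1 and MAP1LC3B were lower with BB2-282 than with both others. Both GABARAPL1 calls were lost when certain single arrays were left out and after median centring. BB2-125 differed from both others in BNIP3 and MAP1LC3B, which were higher with it. Of the MAP1LC3B calls, only that between BB2-125 and BB2-282 held whichever single array was left out. With all arrays, PINK1, WIPI1 and MAP1LC3B were called in all 3 pairs, and BNIP3L, SQSTM1 and BECN1 in none. The WIPI1 calls held against BB2-282, but that between the other compounds was lost when any BB2-125 array was left out. SQSTM1 and BECN1 passed in some of the other fits given below.

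BB2-125 against BB2-162 gave 4 higher and 0 lower of the 10 genes, beside 26.1% of all genes called (16.7% higher and 9.43% lower). Groups did not overlap for 5 of the 10, beside 36.7%. BNIP3 was higher by 0.79 ± 0.10 (adjusted p = 2.15e-05), with 5297 to 5436 for BB2-125 and 2810.4 to 3537 for BB2-162. PINK1 was higher by 0.62 ± 0.12 (adjusted p = 7.67e-04), with every BB2-125 array above every BB2-162 array. MAP1LC3B was higher by 0.56 ± 0.16 (adjusted p = 0.0149), but its groups overlapped through BB2-162 replicate 1. That call was lost without any one of BB2-125 replicate 1 (0.50, adjusted p = 0.0645), BB2-125 replicate 2 (0.48, 0.0620), BB2-162 replicate 2 (0.44, 0.0761) or BB2-162 replicate 3 (0.42, 0.0951), and in a fit of the 2 groups alone (0.56, 0.0827), and without BB2-162 replicate 1 the difference was 0.81 (adjusted p = 6.11e-05). WIPI1 was higher by 0.29 ± 0.10 (adjusted p = 0.0417), which did not pass without any 1 of the BB2-125 arrays (adjusted p 0.0842 to 0.0955), without BB2-162 replicate 2 (0.146) or replicate 3 (0.124), or in a fit of the 2 groups alone (0.118). Quantile normalization made that difference 0.14 (adjusted p = 0.290). The count over all genes, 4182, was 2645 without BB2-162 replicate 3, and 63.9% of the calls were higher, or 74.4% after median centring.

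The other 6 genes were not called between BB2-125 and BB2-162. FUNDC1 differed by 0.34 ± 0.13 (adjusted p = 0.0629) and passed without BB2-125 replicate 2 (0.44, adjusted p = 0.0303), after median centring (0.39, adjusted p = 0.0393) and with array weights (0.38, adjusted p = 0.0447). Without BB2-162 replicate 1, SQSTM1 (0.31, adjusted p = 0.0208) and BECN1 (0.26, adjusted p = 0.0486) also passed, as did SQSTM1 with array weights (0.28, adjusted p = 0.0268). The 95% intervals of the difference with all arrays were -0.02 to 0.42 for SQSTM1, -0.20 to 0.34 for BECN1, -0.36 to 0.14 for BNIP3L, -0.30 to 0.28 for GABARAPL1 and -0.47 to 0.02 for ULK1.

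BB2-125 against BB2-282 gave the most calls, 4 higher and 3 lower, beside 36.3% of all genes (18.7% higher and 17.6% lower). Groups did not overlap for 7 of the 10, beside 51.2%. ULK1 was lower with BB2-125, a difference of -1.54 ± 0.12 (adjusted p = 1.33e-08), with 458 to 478 for BB2-125 and 1322 to 1469 for BB2-282. PINK1 (-0.53 ± 0.12, adjusted p = 0.00144) and WIPI1 (-0.50 ± 0.10, adjusted p = 5.92e-04) were also lower with BB2-125. Higher with BB2-125 were MAP1LC3B (0.99 ± 0.16, adjusted p = 6.07e-05), FUNDC1 (0.59 ± 0.13, adjusted p = 0.00131) and BNIP3 (0.56 ± 0.10, adjusted p = 2.22e-04). GABARAPL1 was higher by 0.40 ± 0.14 (adjusted p = 0.0263), a call lost without BB2-125 replicate 2 (0.31, adjusted p = 0.129), BB2-125 replicate 3 (0.42, 0.0503), BB2-282 replicate 1 (0.36, 0.0958) or BB2-282 replicate 2 (0.34, 0.110), after median centring (0.39, 0.0512) and with quantile normalization (0.27, 0.0928). The intervals of the 3 genes not called were -0.26 to 0.24 for BNIP3L, -0.05 to 0.39 for SQSTM1 and -0.31 to 0.22 for BECN1. SQSTM1 passed with array weights (0.20, adjusted p = 0.0322).

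BB2-162 against BB2-282 gave 2 higher and 3 lower, beside 35.8% of all genes (15.6% higher and 20.3% lower). Groups did not overlap for 6 of the 10, beside 44.9%. ULK1 (-1.32 ± 0.12, adjusted p = 1.17e-07), PINK1 (-1.15 ± 0.12, adjusted p = 5.67e-07) and WIPI1 (-0.79 ± 0.10, adjusted p = 7.41e-06) were lower with BB2-162, and none of these 3 had overlapping groups. MAP1LC3B was higher by 0.44 ± 0.16 (adjusted p = 0.0392). Its call was lost without BB2-162 replicate 1 (0.19, adjusted p = 0.195) and without any 1 of the BB2-282 arrays (adjusted p 0.0690 to 0.100), and with array weights (0.29, 0.0916), after median centring (0.38, 0.105) and in a fit of the 2 groups alone (0.44, 0.0964). GABARAPL1 was higher by 0.41 ± 0.14 (adjusted p = 0.0247), lost without BB2-162 replicate 1 (0.24, adjusted p = 0.112), BB2-282 replicate 1 (0.37, 0.0835) or BB2-282 replicate 2 (0.35, 0.101), after median centring (0.35, 0.0836) and in a fit of the 2 groups alone (0.41, 0.0726). Of the genes not called, BNIP3 differed by -0.23 ± 0.10 (adjusted p = 0.0845) and passed without BB2-162 replicate 1 (-0.32, adjusted p = 0.0139), as did BECN1 (-0.30, adjusted p = 0.0213). BNIP3 also passed with array weights (-0.27, adjusted p = 0.0253), median centring (-0.29, adjusted p = 0.0487) and quantile normalization (-0.32, adjusted p = 0.00801). The intervals were -0.15 to 0.35 for BNIP3L, -0.02 to 0.53 for FUNDC1, -0.24 to 0.20 for SQSTM1 and -0.38 to 0.15 for BECN1. Of all genes called, 43.4% were higher, and 32.9% after median centring.

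**Figure D4:**
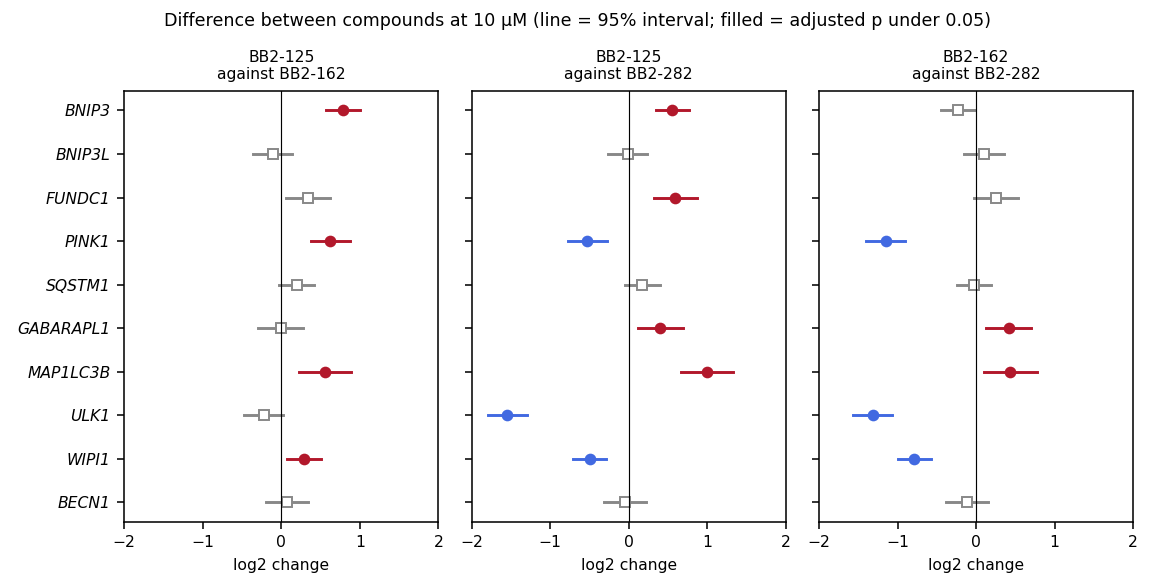
Log2 difference with its 95% interval for each of the 10 genes between each pair of compounds; filled red circles are higher in the compound named first, filled blue circles lower, and open grey squares did not pass. ULK1 lies at -1.54 and -1.32 in the pairs with BB2-282, the largest differences of the 10 genes in any pair.

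Genes of the pathway lists were also called between compounds. BB2-125 against BB2-162 had 26 higher and 4 lower of the 96 genes, 31.2% in all beside 26.1% of all genes, of whose calls 63.9% were higher. Among the 26 were 7 of 11 ATG8 conjugation genes, with ATG5 (0.71), ATG7 (0.60), ATG10 (0.60) and ATG12 (0.46), beside 16.7% of all genes called higher. BB2-125 against BB2-282 had 32 higher and 17 lower, 51% in all beside 36.3% of all genes (18.7% higher and 17.6% lower). ATG4A (1.24), ATG3 (1.09) and VAMP8 (1.15) were higher and PLEKHM1 (-1.54), ATG2B (-1.12) and RB1CC1 (-1.09) lower. BB2-162 against BB2-282 had 20 higher and 22 lower, 43.8% in all beside 35.8%, with ATG4A (1.09) and RAB7A (0.92), a small GTPase of late endosomes, higher, and PLEKHM1 (-1.46), RB1CC1 (-0.85) and ULK2 (-0.78) lower.

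Over the 5 groups the 10 genes did not share 1 profile. Likeness was measured as the root mean square difference between the centred log2 group means of 2 genes, a description over 5 groups of 3 arrays with no test. The closest pair among the 10 was BNIP3L and GABARAPL1, at 0.171, followed by FUNDC1 and BECN1 at 0.258 and BNIP3 and BNIP3L at 0.312. For each of the 10, some other tested gene came closer. Those were picked from far more candidates, so their closeness says nothing on likeness among the 10. The median difference from the other tested genes was 0.246 for SQSTM1, the smallest, and 0.698 for WIPI1, the largest. WIPI1 was nearest to PPP3CC (0.0662), ARFGAP3 and AXL, and GABARAPL1 to CAMLG (0.0597), KCMF1 and TRIB3. BNIP3L was nearest to RALA (0.0356), SNORD45B and IL32, while the profile of BNIP3 was nearest to IFT20 (0.0868), SCARNA10 and AMN1. MAP1LC3B had ISCU (0.0765), PHGDH and NOPCHAP1 as neighbours, and PINK1 had VPS35 (0.0611), SLC9D1 and ZFP90. The falling genes were nearest to DBNL (0.0268), METTL13 and IMPA2 for BECN1, and to SMPDL3B (0.0334), IKBKG and ITM2B for FUNDC1. SQSTM1, which ranged over 0.35 log2 units, was nearest to HSP90AB1 (0.0231), ZNF432 and TRIM7. ULK1 had the least close neighbours of the 10: DACT1 (0.132), PXN (0.132) and DRAM1 (0.133), the last a gene of the lysosomal membrane known to promote autophagy.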

How the data were processed

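RNA from 15 A549 cultures was hybridised to 1-colour arrays. The values are intensities on a linear scale that the authors deposited; per the submitters' processing notes they were made with RMA, which corrects background and normalizes between arrays, with no version given. RMA assumes most genes do not change, so all changes are relative to the array. The array build and software are not given in the sources used here.

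Of 28869 probe sets, 19310 had 1 gene symbol, 1752 several and 7807 none; per gene the probe set of highest mean was kept. Log2 values were fitted with limma 3.58.1 in R 4.3.3 (group means of all 15 arrays, eBayes, Benjamini-Hochberg within each comparison over 16005 genes, threshold 0.05). Genes had to exceed their array's 25th percentile on at least 3 arrays, which left out 2372. The procedure was tried on simulated data with independent noise and few changed genes. That setting is unlike these data, where many genes were called. The number of arrays, 3 a group, limits precision, and p-values measure the spread between these cultures.

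The 10 genes and the pathway lists were chosen with earlier results of these data known. The text names all 10 genes, up to 4 called genes of lowest p per list and comparison, the 3 nearest profiles per gene and 4 genes that check the oxygen labels. Same-numbered replicates deviated together (all correlations over 0.1; 0.189 to 0.328) for BB2-125 with hypoxic vehicle alone; over 10 pairs of groups correlations ran from -0.429 to 0.58. No label says what the numbers share. Alternatives were another dim filter, centring, quantile normalization, intensity trend, array weights, probe-set means, a replicate block, the 2 groups alone and each array left out; the blocked fit of 2 groups was chosen after seeing the data.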

Additional observations from a re-analysis of the deposited data

How the results depend on the processing

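Over 100 gene changes (10 genes in 10 comparisons) and 1510 values under the alternatives, none of the called changes reversed, and 78 values in 27 of the changes crossed the threshold. The replicate block in the fit of all arrays changed the call of WIPI1 in BB2-125 against BB2-162 (0.29, adjusted p = 0.0517) and no other of the 10 genes. In the fit of BB2-125 and hypoxic vehicle alone it called 5352 genes and added FUNDC1. Testing the 2 groups alone called 3494 genes in place of 5780 for BB2-162 against hypoxic vehicle, 2582 in place of 4182 for BB2-125 against BB2-162, where 2 of the 10 genes passed in place of 4, and 3 in place of 5 of the 10 for BB2-162 against BB2-282. For BB2-282 against hypoxic vehicle, array weights called 4193 genes in place of 2176, 5 of the 10 in place of 2 and 39 pathway genes in place of 21, while quantile normalization called 1 of the 10, ULK1, and not BNIP3 (-0.24, adjusted p = 0.0838). Leaving out single arrays gave 1219 to 2395 genes, 1 to 2 of the 10 and 8 to 24 pathway genes for BB2-282 against hypoxic vehicle. For BB2-162 against hypoxic vehicle it gave 4063 to 7688 genes, 3 to 5 of the 10 and 36 to 53 pathway genes. BB2-125 against BB2-162 had 2645 to 6203 genes, 2 to 6 of the 10 and 20 to 41 pathway genes. BB2-162 against BB2-282 had 4440 to 7022 genes, 3 to 5 of the 10 and 32 to 44 pathway genes. The cause of these shifts was not tested. Groups of 3 arrays were too small for an outlier test, and intensities of different genes were not compared.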
